A study of Mus musculus with 15 samples.

Results

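The 10 genes described here encode 8 liver enzymes that make and conjugate bile acids and a pair of nuclear receptors that control them. They are Cyp7a1, Cyp8b1, Cyp27a1, Cyp7b1, Baat, Akr1d1, Hsd3b7, Slc27a5, Nr1h4 (the bile acid receptor FXR) and Nr0b2 (the repressor SHP). They were chosen by name from the 23284 gene symbols of the count table, and all 10 were found and passed the filter on low counts in every comparison. Their lowest count in any library was 31, for Cyp7a1 in floxed tumour 1. RNA was sequenced in bulk from 15 mouse samples in 3 groups. Floxed tumours (n = 6) came from floxed control mice, given in the labels as Hgmb1fl/fl, with Hmgb1 intact. Hmgb1-deleted tumours (n = 6) came from mice labelled Hgmb1Dhep, in which Albumin-Cre removes Hmgb1, a chromatin protein, from liver epithelium and leaves it in other liver cells. Both groups of tumours had been induced with diethylnitrosamine, a mutagen, at 25 mg/kg on day 15 and carbon tetrachloride, a liver toxin, dosed once a week at 0.5 µl/g over 15 weeks beginning in week 8. Normal livers (n = 3) came from C57Bl/6 mice with no treatment named, so the treatment differs between tumours and normal livers as well, and the strain and age at sampling of the tumour groups are not given in the labels. The labels name no litter, sex or batch and do not say whether tumours shared a mouse, so the p-values speak of the spread among these samples only.

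Bile acids are made from cholesterol in hepatocytes. In the classic route Cyp7a1 adds the first, rate-limiting hydroxyl group, Hsd3b7 and Akr1d1 reshape the sterol ring, and Cyp8b1 adds the further hydroxyl group that turns the product into cholic acid. The alternative route begins with Cyp27a1, a mitochondrial sterol hydroxylase that also oxidises the side chain in the classic route, and continues with Cyp7b1. Slc27a5 activates bile acids with coenzyme A, and Baat joins them to taurine or glycine. Bile acids bind FXR, which induces SHP, and SHP in turn represses Cyp7a1 and Cyp8b1, in part through the receptors LRH-1 (Nr5a2) and HNF4A (Hnf4a) bound at their promoters.

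A promoter sequence was at hand for 6 of the 10 genes (Cyp8b1, Cyp27a1, Akr1d1, Hsd3b7, Nr1h4 and Nr0b2), from RefSeq on build GRCm38.p6. The 250 bases before the transcription start are shown for Cyp8b1 and Nr0b2 because these are the 2 windows that held a match to a site of the receptors named above. They lie at chr9:121916306-121916555 on the minus strand for Cyp8b1 and at chr4:133553126-133553375 on the plus strand for Nr0b2, and both are printed 5′ to 3′ along the gene's own strand. Capitals mark the matched bases.
Cyp8b1: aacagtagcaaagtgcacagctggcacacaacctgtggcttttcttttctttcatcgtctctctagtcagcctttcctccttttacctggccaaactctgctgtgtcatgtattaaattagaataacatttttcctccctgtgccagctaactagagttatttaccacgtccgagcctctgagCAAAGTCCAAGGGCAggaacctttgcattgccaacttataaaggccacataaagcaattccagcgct
Nr0b2: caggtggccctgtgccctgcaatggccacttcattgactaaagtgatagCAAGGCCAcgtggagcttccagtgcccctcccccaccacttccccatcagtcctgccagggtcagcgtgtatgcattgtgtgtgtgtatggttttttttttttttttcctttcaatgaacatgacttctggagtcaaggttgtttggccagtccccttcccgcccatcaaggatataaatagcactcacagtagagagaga

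The Cyp8b1 window held the HNF4 site CAAAGTCCA at 67 to 59 bases before the start and the LRH-1 site CAAGGNCA at 60 to 53 bases before it, so that the sites share bases. The Nr0b2 window held the LRH-1 site at 201 to 194 bases before the start. Both strands were searched. The HNF4 site occurred in 0.384% and the LRH-1 site in 5.53% of 32851 promoters of the same length. The FXR inverted repeat, AGGTCA and TGACCT with 1 base between them, was in none of the 6 windows and in 0.00609% of all promoters, which says only that these letters are not in these windows. A match is a description of the sequence and not evidence of binding.

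Totals were 18973246 to 30929442 counts per library, and levels are given as CPM, that is counts after TMM scaling of all libraries to the same total. A gene with 0 counts could have been at up to 0.110 to 0.169 CPM, counting error only. Hmgb1 itself was at 23.3 to 31.8 CPM in floxed tumours and 9.59 to 17.8 CPM in Hmgb1-deleted tumours, a mean of 52.8% of the floxed level, and the groups did not overlap. On the first principal component of all genes, tumours 3, 4 and 6 of the Hmgb1-deleted group were the closest to normal liver, at 18.6, 25.1 and 7.59 against 80.6 to 81.8 in normal livers and -50.2 to -30.3 in floxed tumours. The second component set tumours 2 and 5 of that group apart, at -57.1 and -63.8. Results that rest on these libraries are given with and without them, a choice made after the values were seen. Summed CPM of 8 hepatocyte markers spanned 154300 to 349900 among floxed tumours, 90430 to 210100 among Hmgb1-deleted tumours and 130300 to 158300 among normal livers. Summed CPM of 6 cholangiocyte markers spanned 60.5 to 1766 among floxed tumours, 206 to 6113 among Hmgb1-deleted tumours and 67.4 to 79.0 among normal livers. Spp1 made up most of this sum, reaching 1685, 6024 and 69.8 CPM in these groups, while Krt19 means were 2.05, 1.59 and 1.60 CPM. Alb made up most of the hepatocyte sum, with means of 173400, 101100 and 95750 CPM, while Cps1 means were 454, 553 and 3811 CPM. The sums thus follow mainly Spp1 and Alb and do not measure cell content. No marker of either list was at 0 in a whole group. Between the tumour groups none of the markers of these or of the macrophage, endothelial, stellate and lymphocyte lists passed the test, where 7.78% of all genes did. Between floxed tumours and normal livers 2 hepatocyte markers were higher and 3 lower, and 3 of 6 cholangiocyte markers were higher. So were the macrophage marker Cd68 (1 of 6), the endothelial marker Lyve1 (1 of 5), the myofibroblast marker Acta2 (1 of 6), the lymphocyte marker Cd3g (1 of 5) and Vil1 of the ileal list (1 of 2 tested). Vil1 was at 0.122 to 0.443 CPM in normal livers, near the level that 3 counts give there. In floxed tumours it was at 0.381 to 1.14 CPM, which overlapped. Between Hmgb1-deleted tumours and normal livers 1 hepatocyte marker was lower and 1 of 5 tested cholangiocyte markers was higher. Cd68, Acta2 and Cd3g were higher there too, as were Pecam1 (endothelial), Cd3e (lymphocyte) and Slc10a2 of the ileal list. Lrat, a stellate cell marker, was lower. Slc10a2 was at 6.16 to 7.60 CPM in normal livers, where Fabp6 of the same list was at 0, so its call is not read as an ileal signal. Of all genes, 24.9% were higher and 23.8% lower in floxed tumours against normal liver. In Hmgb1-deleted tumours 18.1% were higher and 16.6% lower. Single calls in lists this short are therefore not read as a change of cell makeup. Summed CPM in floxed tumours, Hmgb1-deleted tumours and normal livers spanned 124 to 442, 173 to 373 and 186 to 280 for the macrophage list. For the stellate cell and fibroblast list it spanned 121 to 1128, 94.7 to 345 and 87.4 to 113. The part of tissue makeup in the results was not tested, and in bulk RNA fewer cells of a type and less RNA per cell cannot be told apart.

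Floxed tumours had far less RNA of this pathway than normal liver. The levels of 9 of the 10 genes fell, by 2.64-fold for Nr1h4 to 44.9-fold for Cyp8b1, and in each of the 9 every floxed tumour lay below every normal liver. Nr0b2 alone did not pass. Lower levels were called in 23.8% of all 13784 genes tested, higher levels in 24.9% and either in 48.7% (adjusted p under 0.05 by the quasi-likelihood test of edgeR with the Benjamini-Hochberg method), and 23.4% of genes had every floxed tumour below every normal liver. The members' median log2 fold change was -2.46, against 0.06 over all genes tested. These 9 calls held under all 19 alternatives tried.

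Hmgb1-deleted tumours had more RNA of most of these genes than floxed tumours. The levels of 7 of the 10 genes rose (Cyp7a1, Cyp8b1, Cyp27a1, Cyp7b1, Baat, Akr1d1 and Nr1h4), and none fell. Over all 13433 genes tested 4.45% rose, 3.33% fell and 7.78% did either. For Cyp7a1, Cyp27a1 and Baat every Hmgb1-deleted tumour lay above every floxed tumour, which held for 2.61% of all genes. The members' median log2 fold change was 1.54, against 0.02 over all genes tested. Without Hmgb1-deleted tumours 3, 4 and 6 the count was 5 higher and 1 lower, since Cyp7b1 and Nr1h4 did not pass and Nr0b2 passed it as lower. Those tumours held the highest Nr0b2 levels of their group, so the Nr0b2 call follows in part from the choice of tumours. Without tumours 2 and 5 it was 7 higher and none lower, with Hsd3b7 passing in place of Cyp8b1.

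Set against normal liver, Hmgb1-deleted tumours were low in part of the pathway. The levels of 4 of the 10 genes fell (Cyp8b1, Cyp7b1, Hsd3b7 and Cyp27a1), and none rose. Over all 13784 genes tested 16.6% fell, 18.1% rose and 34.7% did either. In these 4 genes and in Slc27a5 every Hmgb1-deleted tumour lay below every normal liver, as it did in 19.1% of all genes. The members' median log2 fold change was -1.40, against 0.05 over all genes. The 3 comparisons share samples: both comparisons with normal liver use the same 3 livers, and floxed tumours enter 2 comparisons. Without Hmgb1-deleted tumours 3, 4 and 6 the count was 7 lower, Slc27a5, Nr1h4 and Nr0b2 being added, and without tumours 2 and 5 it was 4. Tumours 3, 4 and 6 held the highest Slc27a5 and Nr0b2 levels of their group. The calls of Slc27a5 and Nr0b2 thus follow in part from the choice of tumours.

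**Figure D1:**
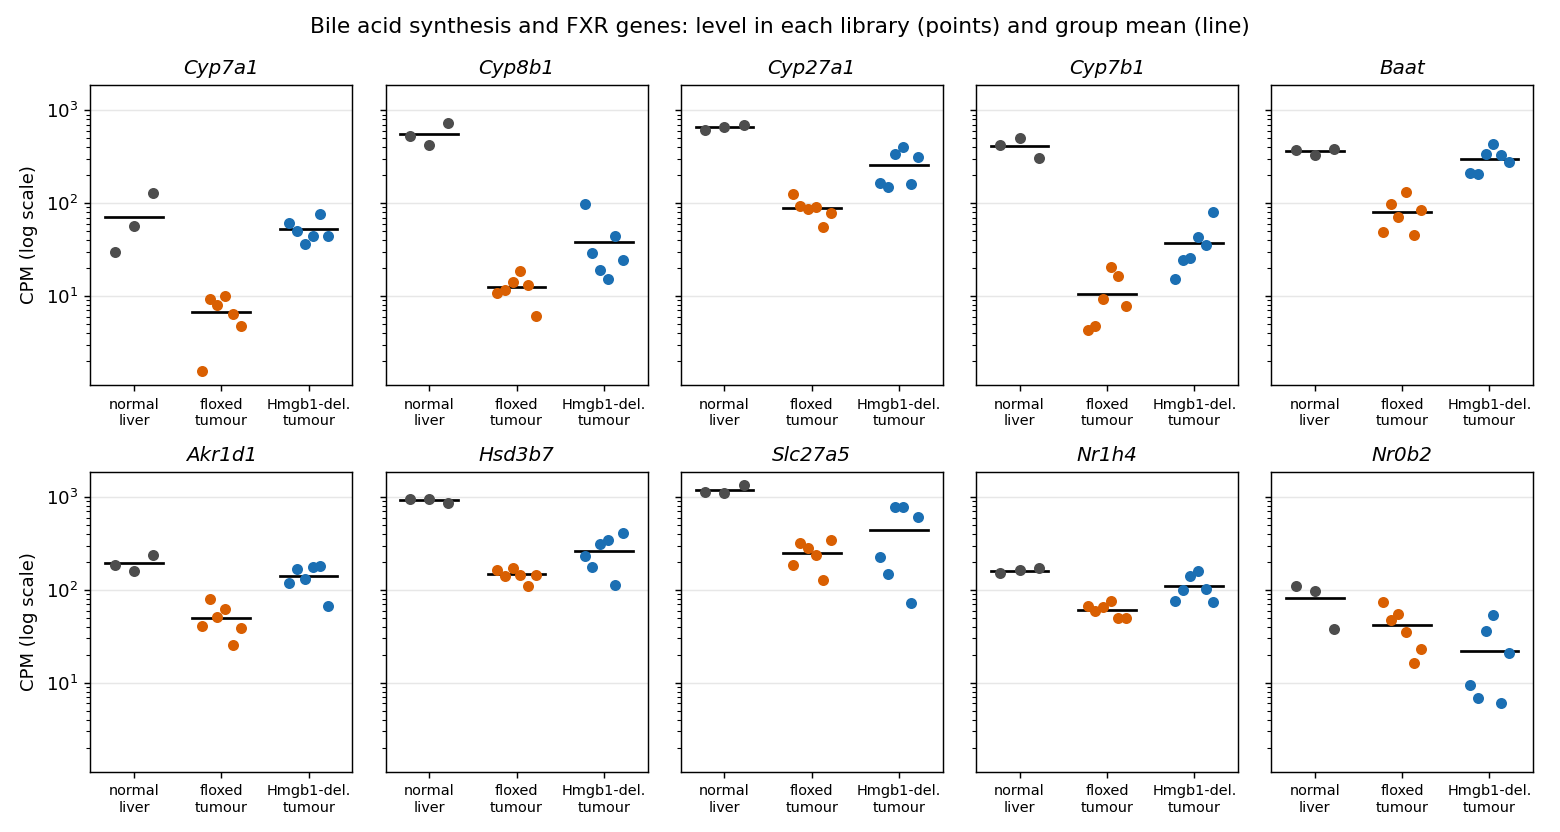
Level of each gene in every library, in CPM on a log axis, for normal livers (grey, n = 3), floxed tumours (orange, n = 6) and Hmgb1-deleted tumours (blue, n = 6). Each point is a library and each line a group mean. Cyp8b1 and Cyp7b1 stay far below normal liver in both tumour groups, while Cyp7a1 and Baat in Hmgb1-deleted tumours overlap normal liver.

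Among the enzymes of the classic route, Cyp7a1 had the largest log2 fold change between the tumour groups. It was at 30.0, 56.5 and 127.8 CPM in the 3 normal livers. In floxed tumours its lowest, median and highest levels were 1.54, 7.19 and 9.99 CPM, with a mean of 6.65 ± 3.16 (SD, n = 6). In Hmgb1-deleted tumours they were 36.3, 47.7 and 76.3 CPM, with a mean of 52.2 ± 14.4 (SD, n = 6). The lowest Hmgb1-deleted tumour was thus above the highest floxed tumour and above normal liver 1. Against floxed tumours Cyp7a1 rose by 2.99 ± 0.37 on the log2 scale (SE; edgeR adjusted p = 0.00131), a 7.97-fold difference, and this held under all 23 alternatives (2.69 to 3.23). Against normal liver it fell in floxed tumours by 3.42 ± 0.52 (adjusted p = 0.000498), and by 2.72 without normal liver 3, the highest of the livers. Hmgb1-deleted tumours did not differ detectably from normal liver, with a log2 fold change of -0.43 and a 95% interval of -1.32 to 0.45 (adjusted p = 0.405). The sign of that value rests on normal liver 3, since it was 0.29 without it.

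Hsd3b7, which acts on the sterol after Cyp7a1, was at 951, 962 and 873 CPM in the normal livers. Its levels were 111, 144 and 174 CPM (lowest, median and highest) in floxed tumours and 113, 272 and 410.1 CPM in Hmgb1-deleted tumours. The tumour groups overlapped, and all 12 tumours lay below all 3 livers. In floxed tumours it fell by 2.66 ± 0.16 on the log2 scale (edgeR adjusted p = 2.43e-06), and in Hmgb1-deleted tumours it fell by 1.797 ± 0.34 (adjusted p = 0.0053). The difference between the tumour groups, 0.87 ± 0.27, missed the threshold (adjusted p = 0.0635), with a 95% interval of 0.30 to 1.45. It passed in 6 of 23 alternatives, among them DESeq2 (adjusted p = 0.0184) and voom (adjusted p = 0.0176). It passed also without Hmgb1-deleted tumour 5 (1.03, edgeR adjusted p = 0.0168), and it was 0.23 without tumours 3, 4 and 6. In the GENCODE M21 annotation exons of Hsd3b7 overlap those of 9430064I24Rik on the other strand and of Gm49388 on the same strand, so its counts are uncertain. The other 9 genes had no such overlap.

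Akr1d1, the steroid reductase that follows, was at 187, 161 and 241 CPM in the normal livers. Its levels were 25.2, 46.2 and 80.7 CPM in floxed tumours and 67.8, 151 and 179 CPM in Hmgb1-deleted tumours (lowest, median and highest). Hmgb1-deleted tumour 6, the lowest of its group, was the only one of that group inside the floxed range. Akr1d1 rose by 1.52 ± 0.29 against floxed tumours (edgeR adjusted p = 0.00999), under all 23 alternatives too (1.14 to 1.79). It fell by 1.97 ± 0.30 in floxed tumours against normal liver (adjusted p = 0.000473). Hmgb1-deleted tumours were not detectably different from normal liver, at -0.46 with a 95% interval of -1.10 to 0.18 (adjusted p = 0.23).

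Cyp8b1, the enzyme that directs the route to cholic acid, was, of the 10 genes, the furthest below normal liver by log2 fold change. It was at 524, 419.7 and 731 CPM in the normal livers. In floxed tumours its levels were 6.12, 12.3 and 18.4 CPM (lowest, median and highest). In Hmgb1-deleted tumours 1 to 6 they were 96.9, 28.7, 19.01, 15.2, 44.7 and 24.3 CPM, so tumour 1 stood well above the rest and only tumour 4 lay within the floxed range. The group means were 2.22% and 6.83% of the normal mean. Against normal liver Cyp8b1 fell by 5.49 ± 0.31 on the log2 scale in floxed tumours (edgeR adjusted p = 1.56e-06). It fell by 3.85 ± 0.54 in Hmgb1-deleted tumours (adjusted p = 0.00194), a 14.4-fold difference. Between the tumour groups it rose by 1.65 ± 0.43 (adjusted p = 0.0336). That call ended when any of floxed tumours 1, 2, 3, 5 or 6 or Hmgb1-deleted tumour 5 was left out (adjusted p = 0.0548 to 0.0691), without Hmgb1-deleted tumours 2 and 5 (0.0629) and with voom (1.14, adjusted p = 0.0787).

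Cyp27a1, which starts the alternative route, was at 611, 666 and 700.3 CPM in the normal livers. Its levels were 54.9, 89.3 and 124.5 CPM in floxed tumours (lowest, median and highest) and 165, 149, 342, 407, 159 and 315 CPM in Hmgb1-deleted tumours 1 to 6. The 3 groups did not overlap. Within the Hmgb1-deleted group the levels fell into a lower set, tumours 1, 2 and 5, and a higher set, tumours 3, 4 and 6. Cyp27a1 rose by 1.56 ± 0.28 against floxed tumours (edgeR adjusted p = 0.00824), and by 0.83 without tumours 3, 4 and 6 (adjusted p = 0.0465). Against normal liver it fell by 2.90 ± 0.21 in floxed tumours (adjusted p = 6.18e-06) and by 1.35 ± 0.33 in Hmgb1-deleted tumours (adjusted p = 0.0133). The last call was lost without normal liver 2 (adjusted p = 0.0533).

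Cyp7b1, the oxysterol hydroxylase that comes next, was at 422, 505 and 309 CPM in the normal livers. Its levels were 4.32, 8.50 and 20.5 CPM in floxed tumours and 15.3, 30.6 and 81.3 CPM in Hmgb1-deleted tumours (lowest, median and highest). Only Hmgb1-deleted tumour 1 was inside the floxed range. Against normal liver Cyp7b1 fell by 5.28 ± 0.48 in floxed tumours (edgeR adjusted p = 2.14e-05) and by 3.44 ± 0.44 in Hmgb1-deleted tumours (adjusted p = 0.00139), to 2.55% and 9.14% of the normal mean. Between the tumour groups it rose by 1.86 ± 0.46 (adjusted p = 0.0277). Leaving out Hmgb1-deleted tumour 4 or 6, or 1 of floxed tumours 1, 2, 3 and 6, ended the call (adjusted p = 0.0514 to 0.0629), and the value was 1.24 without Hmgb1-deleted tumours 3, 4 and 6 (adjusted p = 0.156).

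Of the conjugation enzymes, Baat passed between the tumour groups and Slc27a5 did not, and whether their differences were unequal was not tested. Baat, the amino acid transferase, was at 374.5, 333 and 383 CPM in the normal livers. Its levels were 45.7, 78.0 and 133.6 CPM in floxed tumours and 207, 304 and 436 CPM in Hmgb1-deleted tumours (lowest, median and highest). Every Hmgb1-deleted tumour was above every floxed tumour, and their range enclosed that of normal liver. Baat rose by 1.92 ± 0.29 against floxed tumours (edgeR adjusted p = 0.00427), with 1.63 to 2.12 under the 23 alternatives, all of which passed. It fell by 2.17 ± 0.31 in floxed tumours against normal liver (adjusted p = 0.000291). Hmgb1-deleted tumours were at -0.27 relative to normal liver, with a 95% interval of -0.80 to 0.26 (adjusted p = 0.394).

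Slc27a5, the bile acid CoA ligase, was at 1141, 1105 and 1340 CPM in the normal livers and at 129, 261 and 344 CPM in floxed tumours (lowest, median and highest). In Hmgb1-deleted tumours 1 to 6 it was at 225, 148, 791, 776, 72.8 and 614 CPM. Tumours 3, 4 and 6 were thus above every floxed tumour, tumours 1 and 2 were within the floxed range, and tumour 5 was below it. The highest tumour was 10.9 times the lowest, the widest spread of the 10 genes in that group. Slc27a5 fell by 2.25 ± 0.28 in floxed tumours against normal liver (edgeR adjusted p = 0.000131). The tumour groups did not differ detectably (0.82 ± 0.52, 95% interval -0.29 to 1.93, adjusted p = 0.356), and the value was -0.75 without Hmgb1-deleted tumours 3, 4 and 6 (adjusted p = 0.276). Against normal liver Hmgb1-deleted tumours were at -1.45 ± 0.65 (adjusted p = 0.106). Without the same 3 tumours, the 3 highest of the group for this gene, this became -2.96. Leaving out the highest levels lowers the value by itself, so that pass is not read as a test. With all 6 tumours the difference passed with voom (-1.40, adjusted p = 0.0416).

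Of the regulators, Nr1h4 (FXR) was at 151, 163 and 172 CPM in the normal livers. Its levels were 50.2, 61.9 and 76.2 CPM in floxed tumours and 74.4, 101 and 161 CPM in Hmgb1-deleted tumours (lowest, median and highest). The tumour groups overlapped by a narrow margin, and Hmgb1-deleted tumour 4 reached the range of the livers. Nr1h4 fell by 1.40 ± 0.15 in floxed tumours against normal liver (edgeR adjusted p = 5.69e-05), and rose by 0.86 ± 0.20 in Hmgb1-deleted against floxed tumours (adjusted p = 0.0211). That call ended without Hmgb1-deleted tumour 4 (0.69, adjusted p = 0.0558) and without tumours 3, 4 and 6 (0.60, adjusted p = 0.0647). Against normal liver Hmgb1-deleted tumours were at -0.55 ± 0.24 (adjusted p = 0.0955), and the difference passed without tumour 4 (-0.68, adjusted p = 0.0393) and without tumours 3, 4 and 6.

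Nr0b2 (SHP), the repressor, was the member with no call in any of the 3 comparisons. It was at 109.6, 97.5 and 38.0 CPM in the normal livers and at 16.4, 41.4 and 74.7 CPM in floxed tumours (lowest, median and highest). In Hmgb1-deleted tumours 1 to 6 it was at 9.44, 6.80, 35.9, 54.2, 6.08 and 20.8 CPM. Tumours 1, 2 and 5 lay below every floxed tumour and the other 3 lay within the floxed range. The difference between the tumour groups was -0.91 ± 0.55 (edgeR adjusted p = 0.332), with a 95% interval of -2.09 to 0.27. Without tumours 3, 4 and 6, the 3 highest of the group for this gene, it was -2.50. Leaving out the highest levels lowers the value by itself, so that pass is not read as a test. Against normal liver floxed tumours were at -0.96 ± 0.44 (adjusted p = 0.0951), and Hmgb1-deleted tumours at -1.88 ± 0.66 (adjusted p = 0.0515). The first of these passed in 3 of 19 alternatives: with voom, without floxed tumour 1 (-1.19, edgeR adjusted p = 0.043) and without normal liver 3 (-1.32, edgeR adjusted p = 0.0445). The second passed in 6 of 21, among them DESeq2 (adjusted p = 0.0144) and leaving out Hmgb1-deleted tumour 4 (-2.35, edgeR adjusted p = 0.0192).

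**Figure D2:**
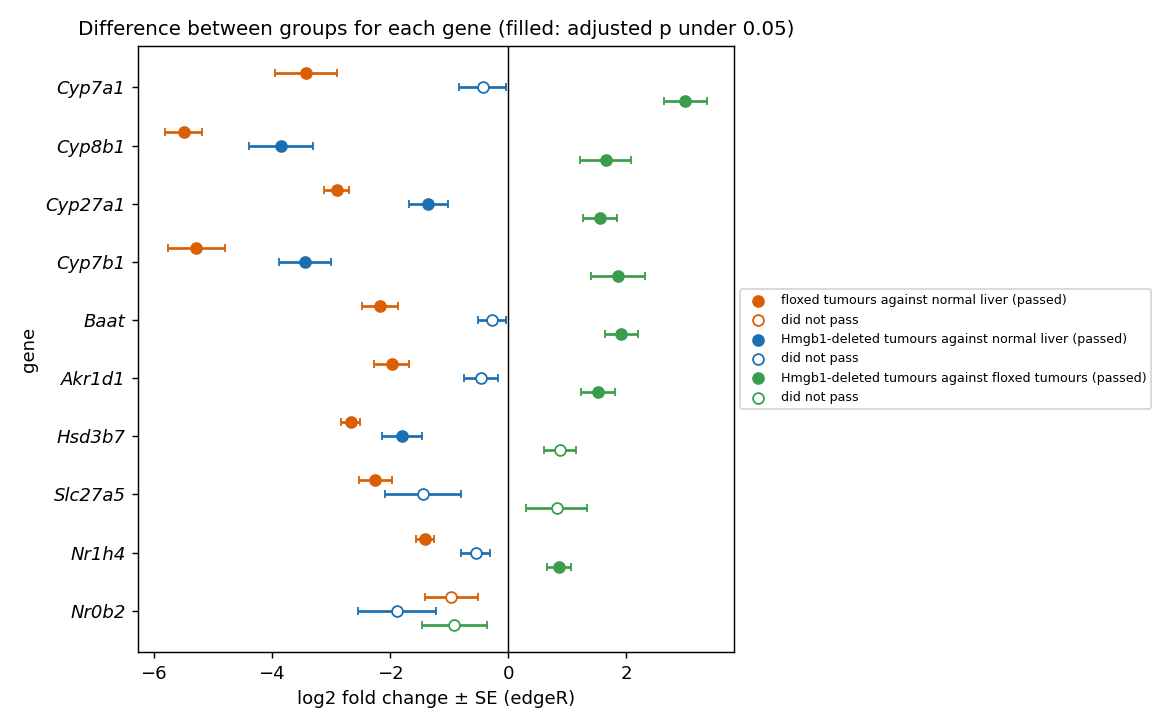
Log2 fold change with its standard error (edgeR) for each gene in the 3 comparisons: floxed tumours against normal liver (orange), Hmgb1-deleted tumours against normal liver (blue) and Hmgb1-deleted against floxed tumours (green). Filled points passed at an adjusted p under 0.05 and open points did not; Nr0b2 has open points in all 3 comparisons.

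Set side by side as shares of the normal mean, the Hmgb1-deleted group was at 82.4% for Baat, 73.0% for Cyp7a1, 71.8% for Akr1d1 and 67.5% for Nr1h4. It was at 38.9% for Cyp27a1, 36.6% for Slc27a5, 28.5% for Hsd3b7 and 27.2% for Nr0b2. It was below 10% for Cyp7b1 and Cyp8b1. Floxed tumours were between 2.22% (Cyp8b1) and 51.5% (Nr0b2). The genes did not share an order over the 6 Hmgb1-deleted tumours. Tumours 3, 4 and 6 held the 3 highest levels of Cyp27a1, Hsd3b7, Slc27a5 and Nr0b2, and tumours 1, 2 and 5 held the 3 highest levels of Cyp8b1. For Cyp7a1 the levels of tumours 1, 2 and 5 were also the highest, at 61.1, 50.8 and 76.3 CPM against 36.3, 44.6 and 44.1 CPM in tumours 3, 4 and 6. These orders were seen in the data and were not tested.

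**Figure D3:**
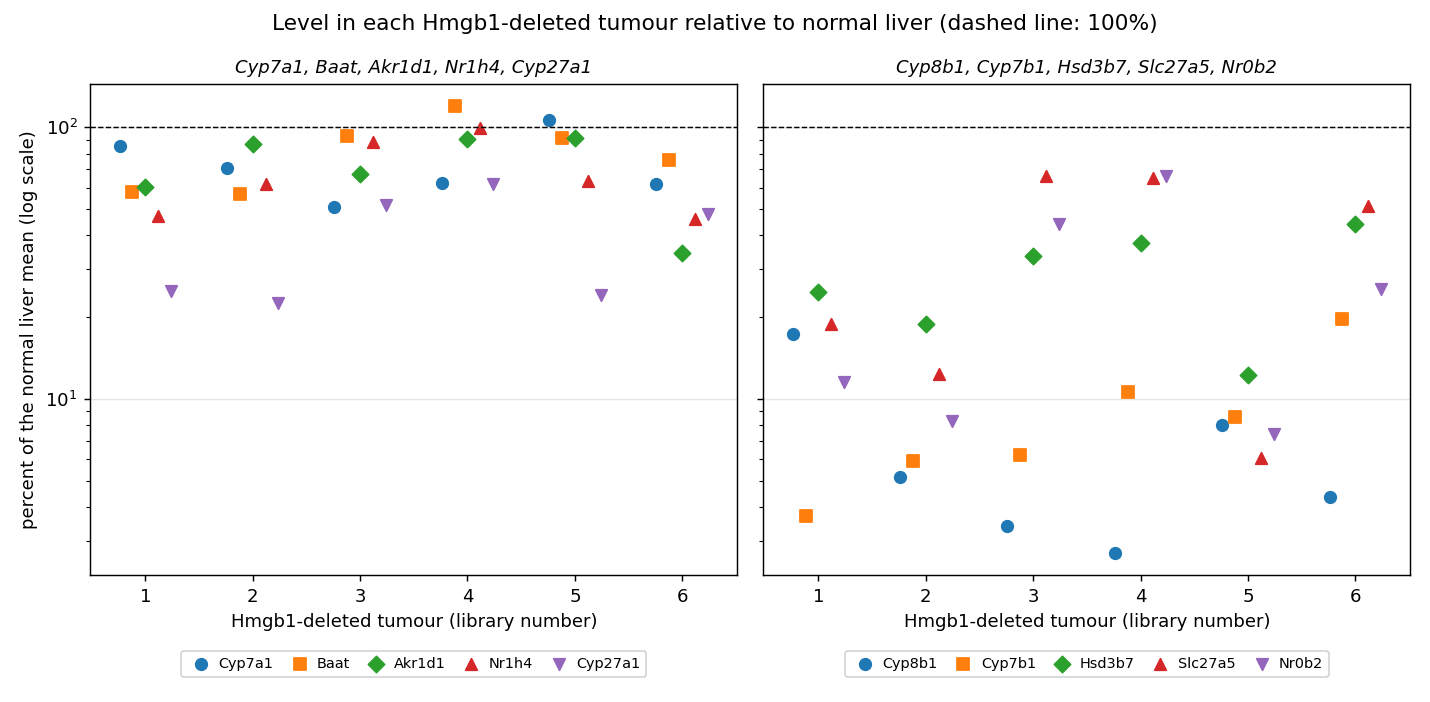
Level of each gene in each of the 6 Hmgb1-deleted tumours as a percentage of the normal liver mean, on a log axis, with 5 genes in each panel. Slc27a5 ranged from 6.09% in tumour 5 to 66.2% in tumour 3, whereas Cyp8b1 ranged from 2.72% in tumour 4 to 17.4% in tumour 1.

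Ratios of read counts within a library do not depend on how libraries are scaled, so 3 ratios were compared, chosen after the values were seen. The adjustment over 9 tests does not cover that choice. Cyp7a1, which differed between the tumour groups, enters all 3 ratios, and Cyp8b1 and Cyp7b1 each differed from normal liver. The ratio tests are therefore not independent of the results for single genes. The counts are not corrected for gene length, so a ratio is compared between groups and not read as a ratio of molecules. Cyp8b1 over Cyp7a1 was 17.45, 7.42 and 5.72 in the normal livers. It lay between 1.25 and 6.91 in floxed tumours and between 0.341 and 1.59 in Hmgb1-deleted tumours. The geometric means were 9.05, 2.06 and 0.611, and 5 of the 6 Hmgb1-deleted tumours were below every floxed tumour. The log2 difference of Hmgb1-deleted from floxed tumours was -1.75 (exact permutation test, two-sided, p = 0.00649, adjusted p = 0.0268 over 9 tests). That of Hmgb1-deleted tumours from normal liver was -3.89 (exact permutation p = 0.0119, which is the least that 6 against 3 libraries allow, adjusted p = 0.0268). That of floxed tumours from normal liver was -2.14 (exact permutation p = 0.0238, adjusted p = 0.0429), which rose to p = 0.0536 without floxed tumour 3 or 4 and to p = 0.0714 without normal liver 1 or 2.

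Cyp7a1 over Cyp7b1, the first enzyme of the classic route over one of the alternative route, was 0.0713, 0.112 and 0.414 in the normal livers, 0.36 to 1.97 in floxed tumours and 0.543 to 3.999 in the Hmgb1-deleted group. All 6 Hmgb1-deleted tumours were above all 3 livers, a log2 difference of 3.38 (exact permutation p = 0.0119, which is the least that 6 against 3 libraries allow, adjusted p = 0.0268). The differences between the tumour groups (1.27, exact permutation adjusted p = 0.0612) and between floxed tumours and normal liver (2.11, exact permutation adjusted p = 0.0536) missed the threshold.

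Cyp7a1 over Nr0b2, the enzyme over its repressor, was 0.274, 0.58 and 3.36 in the normal livers. It was 0.0210 to 0.393 in floxed tumours and 0.822 to 12.5 in Hmgb1-deleted tumours, which did not overlap. The geometric means of the tumour groups were 0.154 and 3.19, a log2 difference of 4.37 (exact permutation p = 0.00216, the least that 6 against 6 libraries allow, adjusted p = 0.0195). Cyp7a1, whose own levels did not overlap between these groups, enters this ratio, so the test is not independent of that result. Neither comparison with normal liver passed (log2 difference -2.39 for floxed and 1.98 for Hmgb1-deleted tumours, exact permutation adjusted p = 0.067 and 0.155).

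**Figure D4:**
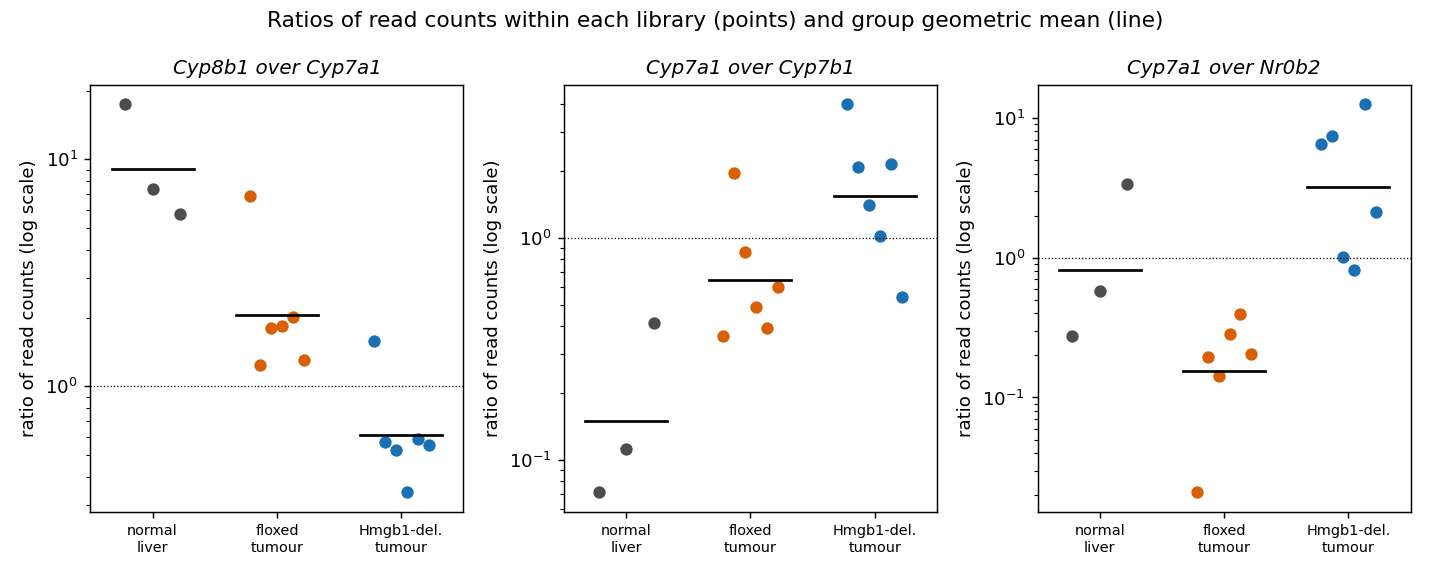
Ratio of read counts of 2 genes within each library, on log axes, for Cyp8b1 over Cyp7a1, Cyp7a1 over Cyp7b1 and Cyp7a1 over Nr0b2. Points are libraries, solid lines geometric means and the dotted line a ratio of 1; for Cyp7a1 over Nr0b2 the floxed tumours, all at 0.393 or lower, lie under every Hmgb1-deleted tumour.

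To compare genes with each other, CPM was divided by the length of a gene's exons in kilobases (GENCODE M21). In normal liver the order of mean levels per kilobase was Slc27a5 (513), Hsd3b7 (467.5), Cyp27a1 (348), Cyp8b1 (286), Cyp7b1 (190.2), Baat (187), Akr1d1 (72.7), Nr0b2 (72.2), Nr1h4 (70.3) and Cyp7a1 (17.1). Neighbours in this order overlapped over the 3 livers except Hsd3b7 and Cyp27a1, Baat and Akr1d1, and Nr1h4 and Cyp7a1. By this measure Cyp7a1 was the lowest of the 10 in normal liver, reaching 30.6 against a lowest Nr0b2 value of 33.6 CPM per kilobase. The annotation used for the counts was not given, so the order depends on the exon lengths taken here. Cyp7a1 had the lowest mean in both tumour groups too, at 1.60 CPM per kilobase in floxed and 12.5 in Hmgb1-deleted tumours. Slc27a5 had the highest mean in all 3 groups. Cyp8b1 went from the fourth place in normal liver to the eighth in both tumour groups. In the tumours all neighbouring ranges overlapped.

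Of 11 other enzymes and transporters of bile acid synthesis, 3 rose in Hmgb1-deleted against floxed tumours and none fell (median log2 fold change 0.52), where 4.45% of all genes rose. These were Hsd17b4 (1.13 ± 0.21, edgeR adjusted p = 0.00948) and Scp2 (1.25 ± 0.27, adjusted p = 0.017), which shorten the side chain in peroxisomes, and Abcd3 (1.11 ± 0.24, adjusted p = 0.0171), a peroxisomal membrane transporter. None of the 3 passed without Hmgb1-deleted tumours 3, 4 and 6 (0.54 to 0.67, adjusted p up to 0.139). In floxed tumours against normal liver 7 of the 11 fell and 2 rose (median -1.39), where 23.8% of all genes fell and 24.9% rose. Scp2 was at -2.64 ± 0.22. Among the 7 was Amacr, a racemase of the side chain (-1.85 ± 0.18). The 2 that rose were Cyp39a1, an oxysterol hydroxylase (1.06 ± 0.30, adjusted p = 0.0137), and Ch25h, a cholesterol 25-hydroxylase (adjusted p = 0.00506). Ch25h was at 0.0406, 0.0815 and 0.0985 CPM in the normal livers, under the level that 3 counts give there, so no fold is given, and at 0.562, 1.19 and 5.84 CPM in floxed tumours (lowest, median and highest). In Hmgb1-deleted tumours against normal liver 4 fell and 1, Ch25h, rose (median -0.89), where 16.6% of all genes fell and 18.1% rose.

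Of 12 tested partners and regulators of FXR and of bile acid synthesis, none passed between the tumour groups (median log2 fold change 0.13), where 7.78% of all genes did, so a count of 0 in a list this short is near the background. Hnf4a, whose site is in the Cyp8b1 window shown above, was at 593 CPM ± 214 (SD, n = 6) in floxed tumours, 625.2 ± 161 (n = 6) in Hmgb1-deleted tumours and 765 ± 111 (n = 3) in normal livers. Its difference between the tumour groups was 0.10 ± 0.25 (edgeR adjusted p = 0.864, 95% interval -0.45 to 0.64). Against normal liver 8 of the 12 fell in floxed tumours (median -1.02), where 23.8% of all genes did, and 6 in Hmgb1-deleted tumours (median -0.67), where 16.6% did. Nr5a2, which encodes LRH-1, was at 29.95 CPM ± 8.18 in floxed and 28.7 ± 3.74 in Hmgb1-deleted tumours against 75.1 ± 12.4 in normal livers, and it fell by 1.32 ± 0.21 and 1.37 ± 0.13 (adjusted p = 0.000614 and 0.000556). Klb, the co-receptor for the intestinal hormone FGF15, fell by 2.02 ± 0.25 and 1.62 ± 0.09 (adjusted p = 0.000137 and 4.00e-05). Fgf15 itself had 0 counts in all 15 libraries.

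Genes known as hepatic FXR targets, other than Nr0b2, had no call between the tumour groups either, with 7 tested (median log2 fold change -0.01). Of all genes 7.78% were called, so a count of 0 in a list this short is near the background. In floxed tumours against normal liver 3 of the 7 fell and 2 rose (median -0.52), where 23.8% of all genes fell and 24.9% rose. Abcb11, the pump that exports bile salts into bile, fell by 1.87 ± 0.30 (edgeR adjusted p = 0.000632). Apoc2, an apolipoprotein, rose by 3.98 ± 0.44 (adjusted p = 7.21e-05). The other riser was Slc51b, a subunit of an export carrier listed under its older symbol Ostb, at 0.131 CPM ± 0.0828 in normal livers and 1.51 ± 1.19 in floxed tumours, and no fold is given because the livers were near the limit of 3 counts. In Hmgb1-deleted tumours 3 of the 7 fell and 2 rose against normal liver (median -0.55), where 16.6% and 18.1% of all genes did, Abcb11 by -1.37 ± 0.36 and Apoc2 by 2.67 ± 0.67 on the log2 scale. The Apoc2 call of the latter comparison was lost without any of the normal livers (adjusted p up to 0.0664), and that of Abcb11 without normal liver 1 or 2 (adjusted p up to 0.068).

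Of 11 tested bile acid carriers, 1 rose in Hmgb1-deleted against floxed tumours and none fell (median log2 fold change 0.50), where 4.45% of all genes rose. It was Slco1b2, a basolateral uptake carrier, which rose by 2.16 ± 0.46 (edgeR adjusted p = 0.0164), from 80.5 CPM ± 43.8 to 356 CPM ± 238 (n = 6 each). Without Hmgb1-deleted tumours 3, 4 and 6 it was at 0.97 (adjusted p = 0.132). Against normal liver 6 carriers fell and 2 rose in floxed tumours (median -0.96), and 4 fell and 2 rose in Hmgb1-deleted tumours (median -0.87). Of all genes 23.8% fell and 24.9% rose in floxed tumours, and 16.6% fell and 18.1% rose in Hmgb1-deleted tumours, so the share of carriers that rose was near or below the background. Slc10a1, the main uptake carrier for conjugated bile acids, fell by 2.91 ± 0.27 in floxed tumours (adjusted p = 2.35e-05). Those that rose were Slc51b and Abcc4 in both comparisons. The export pump Abcc4 went from 3.21 CPM ± 0.466 in normal livers to 56.7 ± 24.7 and 73.0 ± 22.8 CPM.

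Over the 15 libraries the genes with a pattern nearest to that of Cyp7a1, among 11820 that were no members, were Csad, Aldh1a1, Aldh1a7, Aadat and Smad9. The measure of likeness was the root mean square difference of log2(CPM + 1) after each gene was centred on its mean, and it was 0.622 for Csad to 0.782 for Smad9. Csad, an enzyme of taurine synthesis, was at 45.3 CPM ± 18.2 (SD, n = 6) in floxed tumours, 239 ± 108 (n = 6) in Hmgb1-deleted tumours and 333 ± 50.1 (n = 3) in normal livers. Aldh1a1 and Aldh1a7 are close copies, so their counts are uncertain. With a pseudocount of 0.1 in place of 1, 4 of the 5 genes were shared. For Nr1h4 the nearest genes were Pigy (0.170), Ddhd2 (0.192), Zbtb44 (0.204), Sod2 (0.214) and Fahd1 (0.219), and all 5 were shared with the other pseudocount. The measure is smaller for genes that vary less, so its values for Nr1h4 and Cyp7a1 are not compared with each other. Sod2, the mitochondrial superoxide dismutase, was at 73.2 CPM ± 8.90 in floxed tumours, 132 ± 32.0 in Hmgb1-deleted tumours and 205 ± 3.75 in normal livers. The libraries share their groups and scaling, and no test was made on these likenesses.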

How the data were processed

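Poly-A RNA of 12 liver tumours and 3 normal livers was made into TruSeq libraries, per the labels' protocols. The authors deposited unnormalized counts of reads per gene symbol. They used HTSeq 0.6.1, Bowtie2 2.2.4, TopHat2 2.1.0 and bcl2fastq 1.8.4 and build mm9, per the submitters' processing notes. Settings, annotation and strand were not given in the sources used here, so reads of overlapping genes may be shared. Totals of 18973246 to 30929442 counts set the precision of each value. Groups came from the sample labels. In R 4.3.3, each pair of groups was fitted over all genes with edgeR 4.0.16 (filterByExpr, TMM, robust quasi-likelihood F test, group as the only term, Benjamini-Hochberg adjusted p under 0.05), after testing on simulated data. CPM used TMM over 15 libraries. Standard errors and 95% intervals follow from the F statistic. No libraries of a group agreed within sampling noise. Exon lengths came from GENCODE M21 (GRCm38), and no coordinates were taken over from mm9.

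The members and gene lists were chosen with earlier results of these data known. Named genes are the 10 members, Hmgb1, up to 4 genes of each list with the smallest p, and the 5 genes nearest in pattern to Cyp7a1 and Nr1h4; Hnf4a, Nr5a2 and Fgf15 where outside this rule, and the ratios, were chosen afterwards. List genes were matched by symbol, 4 of them by an older one. Ratios of counts were tested with exact two-sided permutation tests of log2 ratios, adjusted over 9 tests. Alternatives were upper-quartile or RLE scaling, a filter of 1 CPM or none, DESeq2 1.42.0, voom (limma 3.58.1) with sample weights, all libraries in 1 fit, a block for the replicate number, and leaving out each library. Library totals without a factor, sets of Hmgb1-deleted tumours left out and libraries 1 to 3 without the block were added after seeing the data.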

Additional observations from a re-analysis of the deposited data

Results flagged for a closer look

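In 6 of 52 groups of 6 libraries, the highest library stood apart from the others. Its gap, as a share of the group's range, passed Dixon's 95% critical value. For normally distributed values chance alone gives about 1 in 20. CPM and ratios were used here without taking logarithms, so their chance rate is not known and 6 of 52 is not read as an excess. Cyp8b1 was at 96.9 CPM in Hmgb1-deleted tumour 1 against 15.2 to 44.7 CPM in the other 5. The ratio of Cyp8b1 to Cyp7a1 counts was 1.59 in the same tumour against 0.341 to 0.586. In floxed tumour 1 that ratio was 6.91 against 1.25 to 2.03, in the library with the lowest Cyp7a1 level (1.54 CPM). The ratio of Cyp7a1 to Cyp7b1 counts was 1.97 in floxed tumour 2 against 0.36 to 0.864. Floxed tumour 6 was high for 2 genes outside the members, Slco1b2 at 165.5 CPM against 50.1 to 87.5 CPM and Hnf4a at 994 CPM against 349.6 to 586 CPM.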

How the results depend on the processing

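For the 10 genes in 3 comparisons, 587 of the values under alternatives kept their direction and side of the threshold, 19 lost a call, 21 gained one and 3 changed sign. The 3 were Slc27a5 between the tumour groups (-0.75 without Hmgb1-deleted tumours 3, 4 and 6) and Cyp7a1 in Hmgb1-deleted tumours against normal liver (0.076 with voom, 0.29 without normal liver 3, and -0.80 to 0.29 over all libraries left out); Hnf4a between the tumour groups was at -0.021 without floxed tumour 5, -0.029 without Hmgb1-deleted tumour 6 (up to 0.31 with a library left out) and -0.16 without Hmgb1-deleted tumours 3, 4 and 6. None of these passed, and the cause was not tested. Between the tumour groups 1045 genes changed, 1954 with DESeq2, 1629 with all 15 libraries in 1 fit and 589 to 1054 with a library left out (589 without Hmgb1-deleted tumour 4). For floxed tumours against normal liver the count was 6714, and 4860 to 6966 with a library left out. For Hmgb1-deleted tumours against normal liver it was 4787, and 2113 to 4912 with a library left out (2113, 2227 and 3109 without normal liver 1, 2 and 3). Members changed numbered 5 to 7, 9 to 10 and 3 to 6 with a library left out, in the order above, and 7 in the last comparison without Hmgb1-deleted tumours 3, 4 and 6. Scaling moved the balance over all genes: 535 higher and 524 lower between the tumour groups with RLE factors, 561 and 560 with upper-quartile factors, and 982 and 257 on library totals without a factor. For floxed tumours against normal liver the split was 4363 and 2509 with upper-quartile factors and 3100 and 2391 without a factor, and for Hmgb1-deleted tumours 3390 and 1578, and 2969 and 1062. Same-numbered tumours did not deviate together (correlations -0.27 to 0.23, and 2 of 6 Hmgb1-deleted tumours correlated best with their own number). With the replicate block 6 members changed between the tumour groups, Cyp8b1 missing at 1.42 (adjusted p = 0.0912), and 3055 genes and 5 members in Hmgb1-deleted tumours against normal liver, Slc27a5 being added at -1.96 (adjusted p = 0.0417). Only numbers 1 to 3 enter that block, and the same libraries without the block gave 3679 genes and 4 members (Slc27a5 -1.59, adjusted p = 0.0855). The lowest count of any member in a library was 31, so depth limits the precision most for Cyp7a1 in floxed tumour 1.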
